A study of Mus musculus with 4 samples.

Results

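The Zfp genes are mouse zinc finger protein genes named Zfp followed by a number. Their probe sets were described on 4 Affymetrix mouse arrays, on which several short probes per transcript are summarised as 1 probe set with a single value. Members were chosen by 2 conditions: a platform gene symbol of exactly Zfp and digits, and a mean of at least 8.4 on the log2(intensity + 16) scale over the 4 arrays. Of 575 probe sets with such a symbol (305 genes), 356 (250 genes) reached that level, out of 45101 probe sets on the array. The other 219 did not, and 55 genes had no member. The level therefore belongs to the choice and is given below as a description only.

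Per the labels, the starting material of every array was mouse total RNA from brain, with hindbrain and spinal cord. A Nugen kit gave the cDNA hybridised to arrays N0 and N1, here called cDNA arrays 0 and 1. T7-based amplification gave the antisense RNA on R0 and R1, here called aRNA arrays 0 and 1. The meaning of the numbers 0 and 1, the strain, the age and any treatment are not given in the sources used here, and neither is the number of animals. With 2 arrays per preparation, p-values measure only the spread between these arrays, which may be technical or come from different RNA samples. Sex-linked RNA, given below, differed widely between the 2 aRNA arrays. In bulk tissue, fewer cells of a type and less RNA per cell cannot be told apart.

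A classical zinc finger is a short fold in which cysteines and histidines hold a zinc ion, and a row of such fingers reads a DNA sequence. Many vertebrate zinc finger proteins also carry a KRAB domain, which recruits the co-repressor Trim28 and with it the histone methyltransferase Setdb1, and so silences retroelements and other targets. Others carry fingers that bind RNA, and several are known from brain development. Their transcripts are in general of low abundance.

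The arrays had median intensities of 338 to 386 at an equal 2% trimmed mean. Background, the 95th percentile of 27 control probe sets for Bacillus transcripts, was 212 (cDNA array 0), 249 (cDNA array 1), 123 (aRNA array 0) and 126 (aRNA array 1). All 18 neuronal, astrocyte, oligodendrocyte and microglial marker genes found lay above background on each array, whereas of 5 markers of hindbrain and spinal cord 2 did (Hoxa5 and Slc6a5). Of 2 muscle and 2 liver genes, Apoa2 did. Sex-linked RNA differed in the same direction between the numbers in both preparations, and more widely with aRNA. Xist, the noncoding RNA of X inactivation, was 11.94 (N0) and 12.51 (N1) with cDNA and 8.55 (R0) and 15.44 (R1) with aRNA, on the log2 scale, as all levels below. The Y-linked Eif2s3y was 7.92 (N0) and 4.75 (N1) with cDNA and 13.12 (R0) and 6.79 (R1) with aRNA. It was under background on N1 and R1 and near it on N0, where background was 7.83.

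Promoter sequence gave a feature of these genes that did not enter their choice. RefSeq start-site windows of build GRCm38.p6, each 250 bases before to 50 bases after a start, were found for 205 of the 250 genes (253 windows, matched by gene identifier). The letters ACTACAATT, searched on both strands, stood in 8 of these windows (3.16%), against 0.697% of 12488 windows of all genes with a tested probe set and 0.393% of all 32851 windows. This is part of the sequence that the zinc finger protein Zfp143 is known to bind. The 7 genes are shown with 15 bases on either side, 5′ to 3′ on the strand that reads ACTACAATT (in capitals), since this is the sequence the windows share:
Zfp1, chr8:111643405-111643443, minus strand: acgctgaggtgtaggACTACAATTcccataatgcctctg
Zfp128, chr7:12881150-12881188, minus strand: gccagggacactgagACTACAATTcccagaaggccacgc
Zfp180, chr7:24081862-24081900, minus strand: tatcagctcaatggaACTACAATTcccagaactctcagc
Zfp454, chr11:50887651-50887689, plus strand: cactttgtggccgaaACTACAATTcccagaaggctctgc
Zfp58, chr13:67500527-67500565, plus strand: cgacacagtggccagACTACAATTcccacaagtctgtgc
Zfp692, chr11:58307006-58307044, plus strand: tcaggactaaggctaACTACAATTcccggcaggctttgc
Zfp93, chr7:24270334-24270372, minus strand: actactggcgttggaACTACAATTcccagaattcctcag
In 6 of the 7 the motif lay on the strand opposite to the gene. A match is a description of the letters and not evidence of binding.

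In all, 13 motifs were searched on both strands, and ACTACAATT and the next 6 were picked for display after their counts had been seen, so the size of its share is a description. Longer motifs were shortened to at most 9 letters, also with the counts known. The ETS-type motif CCGGAAGT stood in 11.5% of member windows (7.43% for all tested genes), GATTGGC, whose reverse complement holds the CCAAT box, in 14.2% (9.56%) and the NRF1-type motif GCGCANGCG in 13.8% (12.8%). CCCTCCC (27.7% against 29.0%), the CRE-type motif TGACGTCA (3.56% against 3.03%) and TATAAA (6.72% against 7.17%) were at near shares. Of the other 6, ACTACAA, a stretch of the first motif, stood in 7.11% (3.99%), GGAAGT, a stretch of CCGGAAGT, in 40.3% (26.3%), ATGCGCAG in 3.95% (2.27%) and CAGAATGC in 1.58% (1.26%). TTGCGCAA and CCATATTAG were in no member window (0.264% and 0.0641% for tested genes). The median number of CG dinucleotides was 16 per member window, 20 for tested genes and 7 for all windows. The 9 member probe sets of the genes with ACTACAATT included 1 called higher and 3 called lower on cDNA, by the test described below. That share is near the 43.2% called of all probe sets tested. Their median difference was −0.93, against −0.11 for all tested. The called ones were Zfp692 (1.21), Zfp1 (−1.97), Zfp180 (−1.38) and Zfp58 (−1.83, under background on cDNA array 0).

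The members lay low on the arrays. Their median level was 10.11 (quartiles 9.29 and 11.02, range 8.41 to 15.09), against 10.88 (9.53 and 12.53) for the 22519 probe sets tested. Brightness depends on a probe set's own oligonucleotides, so these values do not rank genes by transcript number. Of the 356 members, 328 lay above background on all 4 arrays and 28 under it on at least 1 (6 on cDNA array 0, 18 on cDNA array 1, 3 on aRNA array 0, 4 on aRNA array 1). Just inside the threshold were Zfp235 (8.41), Zfp84 (8.41) and Zfp52 (8.42), and just outside it Zfp444 at 1430851_at (8.39), Zfp870 (8.38) and Zfp316 (8.38). The 219 probe sets outside had a median of 7.33, and 43 of them lay under background on all 4 arrays.

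The 8 genes with the brightest probe sets included several known from RNA and protein metabolism. Zfp622, a ribosome maturation factor, read 14.71 (N0) and 14.83 (N1) with cDNA and 15.27 (R0) and 15.56 (R1) with aRNA at 1438000_x_at. Zfp106, an RNA-binding protein needed by motor neurons, read 14.95 (N0) and 14.88 (N1) with cDNA and 13.77 (R0) and 13.45 (R1) with aRNA. Zfp91, a ubiquitin ligase, read 14.04 (N0) and 13.86 (N1) with cDNA and 13.35 (R0) and 13.14 (R1) with aRNA. On Zfp106 and Zfp91 both cDNA arrays were the higher ones, and on Zfp622 both aRNA arrays. Zfp365, also called DBZ and known from neurons, had a mean of 13.49. Zfp931 (13.73), Zfp655 (13.43), Zfp251 (13.21) and Zfp771 (13.18) were the others.

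Pearson's r, a description across probe sets, which are not independent, was 0.88 over the members for the cDNA pair and 0.90 for the aRNA pair, against 0.94 and 0.96 for all tested. Between the preparations its mean over the 4 pairs was 0.54, against 0.72. The median absolute difference was 0.43 for the cDNA pair, 0.42 for the aRNA pair and 0.73 between the means of the preparations, on the log2 scale. For all tested it was 0.37, 0.33 and 0.88. The members are dimmer and span fewer levels than all tested. Within the 4 ranges of level used below, from the lowest, the cDNA pair differed by a median of 0.60, 0.47, 0.40 and 0.24 over the members and 0.61, 0.50, 0.40 and 0.26 over all tested. The aRNA pair differed by 0.48, 0.43, 0.47 and 0.25, against 0.45, 0.39, 0.32 and 0.27.

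The first comparison set cDNA target against aRNA target. Whether the cDNA and aRNA arrays hold the same RNA is not given, so preparation and RNA sample cannot be told apart in it. Of the 356 members, 67 were called higher and 51 lower on cDNA, and 238 did not pass (limma, adjusted p under 0.05 over all 22519 probe sets tested). The 118 calls are 33.1% of the members, while 43.2% of all probe sets tested were called (20.2% higher and 22.9% lower). Past the 75th percentile of level the order of these shares turned, with 62.5% of members and 57.3% of all tested called. With no filter on low values 25.6% of members were called, against 21.2% of all tested. The members keep their own level threshold there. Of every matching probe set, without that threshold, 17.7% were called. The values of the 2 preparations did not overlap for 237 members, against 73.8% of all tested. Called probe sets belonged to 93 genes. The median difference was −0.15 (quartiles −0.75 and 0.72) for the members and −0.11 for all tested. Left without aRNA array 0, 76 members were called (21.3%, against 31.7% of all tested), 53 higher and 23 lower. Centring the arrays on their medians, which shifts the median of all tested to −0.25, gave 118 calls, 56 higher and 62 lower. These are 33.1% of the members, against 44.5% of all tested.

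Calls grew more frequent with level. From 8.4 to under 9.4, 16 of 103 members were called (15.5%, against 24.9% of all tested in that range), and from 9.4 to under 10.4, 30 of 113 (26.5% against 36.3%). From 10.4 to under 11.4 it was 30 of 77 (39.0% against 43.5%), and at 11.4 or higher 42 of 63 (66.7% against 56.0%). In the highest range 29 members were higher on cDNA and 13 lower, with a median difference of 0.48, against −0.14 for all tested there. In the 3 lower ranges the members were called less often than all tested, and in the highest one more often. The mean level that sets these ranges also chose the members, so no test is attached to them.

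**Figure D1:**
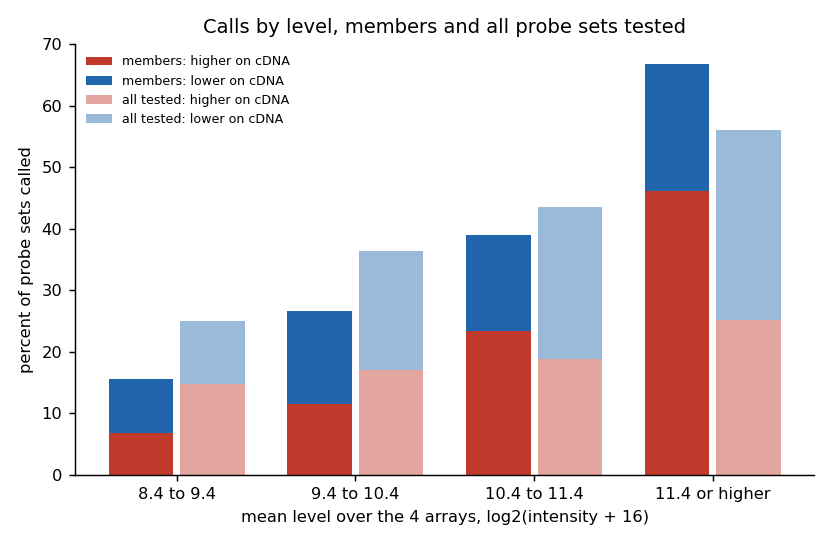
Percent of probe sets called higher (red) or lower (blue) on cDNA than on aRNA in 4 ranges of mean level, for the members (dark) and for all probe sets tested (pale). The member bars rise from 15.5% to 66.7%, and those of all tested from 24.9% to 56.0%.

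**Figure D2:**
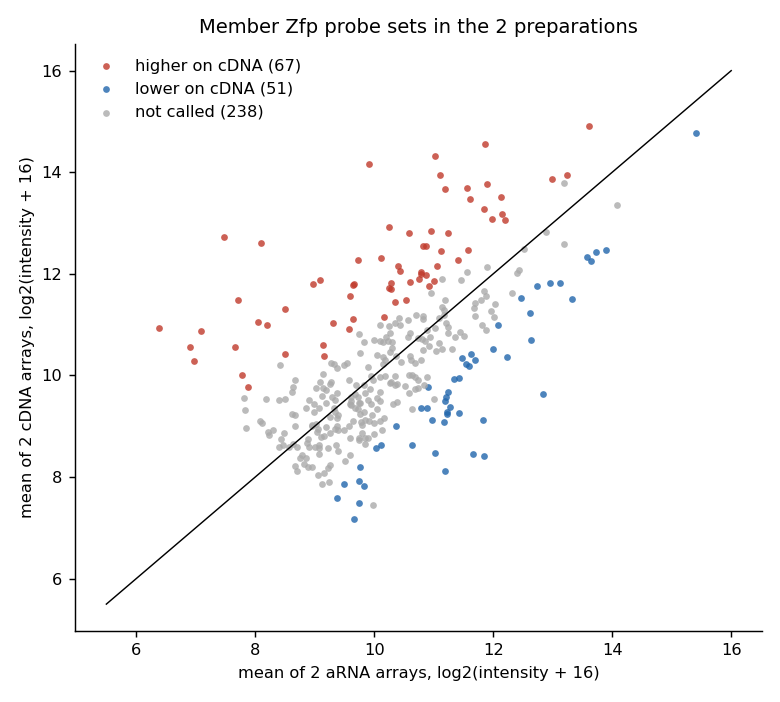
Mean log2(intensity + 16) of the 2 cDNA arrays against that of the 2 aRNA arrays for the 356 members, 1 point each, coloured by call; the line marks equal values. The 67 called higher lie above the line and the 51 called lower under it; the 238 not called lie on both sides, some as far from the line as called ones.

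Of the 12 probe sets with the largest called differences toward cDNA, 4 lay under background on at least 1 aRNA array and the others above it on all 4 arrays. The aRNA means of Zfp334 (6.38), Zfp39 (7.09), Zfp644 (6.90), Zfp800 (6.98), Zfp207 (7.66), Zfp930 (7.71), Zfp444 (8.05) and Zfp825 (8.10) lay under 8.4. These probe sets reached the member threshold of 8.4 only through their cDNA arrays, so a high cDNA value was part of their choice. The aRNA means of Zfp317, Zfp263, Zfp458 and Zfp462 lay above 8.4. Zfp334 read 11.43 (N0) and 10.45 (N1) with cDNA and 5.82 (R0) and 6.93 (R1) with aRNA at 1420111_at. Both aRNA values were under background, so the fold is a bound against it: cDNA exceeded aRNA at least 14-fold (adjusted p = 0.000543 by limma). Its other member probe set, 1420110_s_at, differed by −0.31. Zfp825 read 12.30 (N0) and 12.90 (N1) with cDNA and 7.95 (R0) and 8.25 (R1) with aRNA at 1425297_at, above background throughout, and differed by 4.50 ± 0.39 (standard error of the fit; limma adjusted p = 7.55e-05). The 2 groups of arrays are far apart there, and the gene's other member probe set, 1451654_x_at, which lies outside the naming rule and was picked out with its value known, gave 5.26.

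Zfp317 read 14.04 (N0) and 14.28 (N1) with cDNA and 10.01 (R0) and 9.83 (R1) with aRNA, a difference of 4.24 ± 0.28 (standard error of the fit; limma adjusted p = 2.49e-05). Zfp263, a transcription factor, read 14.38 (N0) and 14.27 (N1) with cDNA and 10.87 (R0) and 11.18 (R1) with aRNA at 1447432_s_at, a difference of 3.30 ± 0.26 (standard error of the fit; limma adjusted p = 5.02e-05). All 4 arrays were well above background for both genes, and the arrays of each preparation differed by at most 0.30. The other member probe set of Zfp263, 1453105_at, gave 0.33 and was not called. Zfp462, a chromatin-associated protein of neural development, was 13.94 ± 0.14 on cDNA and 11.11 ± 0.55 on aRNA (mean ± SD, n = 2) at 1456789_at. Zfp458 was 11.80 ± 0.75 and 8.97 ± 0.90 in the same order.

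Zfp39 was at least 10.9-fold higher on cDNA at 1427590_at (under background on aRNA array 0). Zfp644 was at least 10.8-fold higher at 1449691_at and Zfp800 at least 8.49-fold at 1437581_at (both under it on aRNA array 1). The other member probe sets of Zfp39 (0.30) and Zfp800 (0.61) were not called. Zfp930 differed by 3.77, Zfp444 by 3.0 and Zfp207, a spindle protein, by 2.91, all above background. On aRNA array 1 Zfp930 was only just above it (intensity 128 against 126). The adjusted p of these 12 probe sets lay between 2.49e-05 and 0.00297. Each kept its direction and its call under all alternatives in which it was tested.

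Toward aRNA, the called differences reached −3.43, against 5.26 toward cDNA. Of the probe sets named in this direction, those of Zfp292 (8.12), Zfp84 (7.17), Zfp626 (7.50) and Zfp386 (7.83) had cDNA means under 8.4. They reached the member threshold of 8.4 only through their aRNA arrays. The others named in this direction had cDNA means above it. Zfp644, a partner of histone methyltransferases, read 8.71 (N0) and 8.13 (N1) with cDNA and 12.75 (R0) and 10.95 (R1) with aRNA at 1436985_at, a difference of −3.43 ± 0.58 (standard error of the fit; limma adjusted p = 0.00183). Zfp711, an X-linked transcriptional activator, read 9.90 (N0) and 9.37 (N1) with cDNA and 13.23 (R0) and 12.43 (R1) with aRNA, a difference of −3.19 ± 0.38 (standard error of the fit; limma adjusted p = 0.000323). Zfp451, a SUMO ligase, read 9.35 (N0) and 7.55 (N1) with cDNA and 12.04 (R0) and 11.30 (R1) with aRNA at 1456350_at. It was under background on cDNA array 1 and at least 7.83-fold lower on cDNA (limma adjusted p = 0.00281), while its 3 other member probe sets differed by −0.18, −0.38 and −0.18 and were not called.

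Zfp292 (−3.07) and Zfp148 (−2.71) followed at 1 probe set each, both above background on all 4 arrays, then Zfp287 (−2.17) and Zfp1 (−1.97). Zfp84 was at least 3.28-fold lower and lay under background on both cDNA arrays. Other member probe sets of Zfp84 were not called, and neither was that of Zfp287 (1.13). The remaining 4 calls, and that of Zfp84, did not hold throughout. Without aRNA array 0, Zfp84 (−2.24), Zfp318 (−1.62), Zfp386 (−1.59) and Zfp626 (−1.69) were not called, and neither was Zfp407 (−1.89) without aRNA array 1, Zfp626 (−1.25) without cDNA array 0 or Zfp386 (−1.45) without cDNA array 1. Zfp626 and Zfp386 were also lost with no filter on low values, and Zfp626 with no intensity trend. With all arrays Zfp318 (−2.01) and Zfp407 (−2.09) lay above background. Zfp626 was under it on cDNA array 0 and Zfp386 on cDNA array 1, so that their folds are bounds. These were at least 3-fold lower for Zfp626 and at least 3.07-fold lower for Zfp386. The other member probe set of Zfp386 gave −0.74 and was not called.

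**Figure D3:**
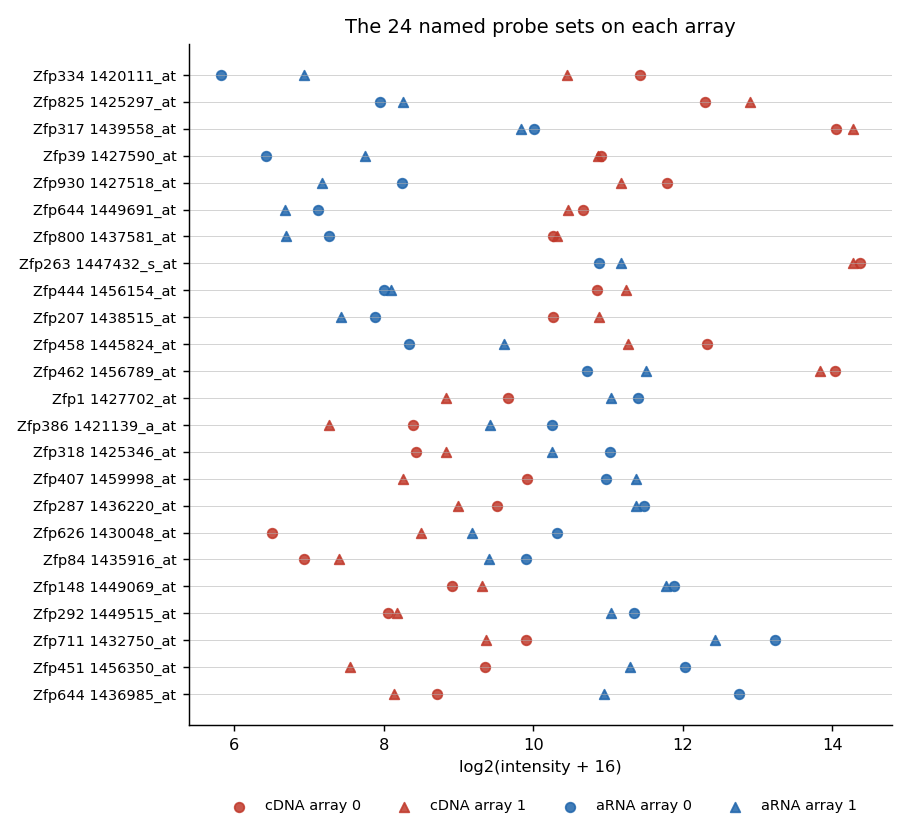
Log2(intensity + 16) on each of the 4 arrays for the 12 probe sets with the largest called difference in each direction (names ending in _x_at left out, 1 per gene and direction). Red marks cDNA and blue aRNA, circles array 0 and triangles array 1. Probe sets whose cDNA and aRNA arrays overlapped were left out of the choice. For all 24, both red marks therefore lie on one side of both blue marks by selection.

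Probe sets of one Zfp gene often disagreed. Of 77 genes with several members, 39 (50.6%) had differences of both signs, against 55.2% of the 5034 tested genes with several probe sets. Where at least 2 member probe sets were called, in 21 genes, 14 (66.7%) had calls in opposite directions; over all tested genes it was 766 of 1688 (45.4%). The difference between these shares was not tested. The 14 genes were Zfp644, Zfp292, Zfp930, Zfp462, Zfp148, Zfp397, Zfp651, Zfp318, Zfp995, Zfp655, Zfp281, Zfp329, Zfp267 and Zfp622. In 2 of them a called probe set lay under background, 1449691_at of Zfp644 on aRNA array 1 and 1425361_at of Zfp397 on both cDNA arrays.

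Zfp644 had probe sets far apart in both directions. At 1449691_at it read 10.66 (N0) and 10.46 (N1) with cDNA and 7.12 (R0) and 6.68 (R1) with aRNA, and at 1436985_at the order of the preparations was turned, as given above. Its 2 other member probe sets, 1419984_s_at (0.21) and 1429623_at (0.53), did not pass. RefSeq lists 2 start windows for this gene, shown here because the gene had probe sets called both ways, with matches to GATTGGC and GCGCANGCG on either strand in capitals:
Zfp644 start downstream, chr5:106696476-106696775, minus strand: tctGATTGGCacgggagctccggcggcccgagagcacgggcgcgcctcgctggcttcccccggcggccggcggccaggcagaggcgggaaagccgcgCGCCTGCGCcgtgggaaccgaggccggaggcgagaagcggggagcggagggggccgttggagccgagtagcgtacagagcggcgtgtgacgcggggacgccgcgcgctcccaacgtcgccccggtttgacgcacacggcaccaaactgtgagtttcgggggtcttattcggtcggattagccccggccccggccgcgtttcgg
Zfp644 start upstream, chr5:106696781-106697080, minus strand: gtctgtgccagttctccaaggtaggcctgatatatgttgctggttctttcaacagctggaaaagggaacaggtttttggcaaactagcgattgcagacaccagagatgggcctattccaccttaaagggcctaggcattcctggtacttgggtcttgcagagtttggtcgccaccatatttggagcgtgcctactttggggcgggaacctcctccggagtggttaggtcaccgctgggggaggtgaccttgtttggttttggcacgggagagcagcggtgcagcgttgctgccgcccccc
The downstream window holds 47 CG dinucleotides and the upstream one 10, with none of the first 7 motifs. Of the 14 genes, 11 had a start window and 2 more than 1, and 19.5% of all member genes with a window had more than 1. The places of the probe sets along the transcripts are not given in the files used here.

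Zfp292, a large nuclear protein known from neurodevelopmental disorders, showed the same split. At 1419575_s_at it read 12.71 (N0) and 12.89 (N1) with cDNA and 10.45 (R0) and 10.72 (R1) with aRNA, and at 1449515_at 8.06 (N0) and 8.18 (N1) with cDNA and 11.35 (R0) and 11.04 (R1) with aRNA. The first differed by 2.22 and the second by −3.07, with no overlap of the groups in either. Probe set 1419574_at followed the first (2.14) and 1436308_at was near 0 (0.01).

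Zfp148, a GC-rich promoter-binding factor, had the most members, 6. At 1418381_at it read 12.84 (N0) and 12.86 (N1) with cDNA and 10.96 (R0) and 10.96 (R1) with aRNA. That difference was 1.89, while 1449069_at (−2.71) and 1449068_at (−0.95) were called lower, and the other 3 lay between −0.91 and 0.56. Zfp318, which steers antibody transcript splicing in B cells, was called higher at 1 of 5 (2.23) and lower at 2 (−2.01 and −1.40). Zfp462 differed by 2.83 and −1.94, Zfp930 by 3.77 and −1.21, and Zfp651 by 2.79 and −1.63. Zfp397 differed by 2.80 at 1435664_at and was at least 2.69-fold lower at 1425361_at, under background on both cDNA arrays.

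**Figure D4:**
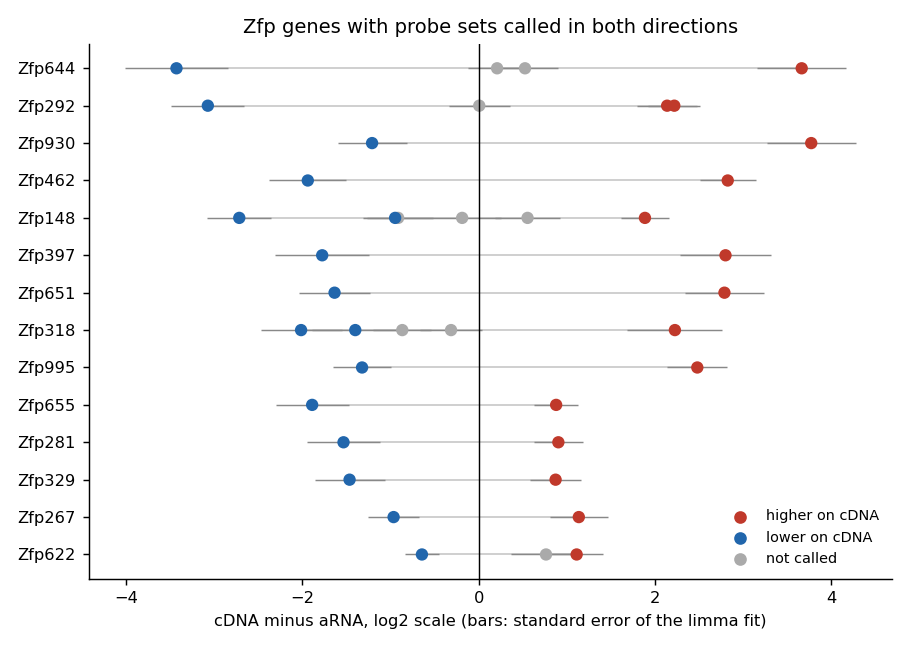
Difference between cDNA and aRNA (log2 scale, with the standard error of the limma fit) at each member probe set of the 14 genes called both ways; red is called higher on cDNA, blue lower and grey neither. Each gene has at least 1 red and 1 blue point; values of Zfp644 at 1449691_at and Zfp397 at 1425361_at include arrays under background.

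Genes with a known role in RNA, ribosome or spindle biology gave 25 member probe sets of 11 genes, 5 higher, 7 lower and 13 not called (median −0.36). The share called was 48.0%, near the 43.2% of all tested. Zfp36, tristetraprolin, which binds AU-rich messages and brings on their decay, read 8.82 (N0) and 9.02 (N1) with cDNA and 8.69 (R0) and 10.30 (R1) with aRNA; the cDNA arrays lay within the range of the aRNA arrays, and aRNA array 1 was the highest. Zfp330, a nucleolar protein, was lower on cDNA, with a difference of −1.30 ± 0.30 (standard error of the fit; limma adjusted p = 0.00806), as were Zfp346, which binds double-stranded RNA (−1.44), and both probe sets of Zfp638 (−1.13 and −1.70). Zfp207 was higher at 2 of 5 (2.91 and 1.42). Zfp598, the ligase that marks collided ribosomes (−0.60), and Zfp326, which links transcription to splicing (−0.69), did not pass. The Zfp830 probe sets, with −0.71, 0.59 and 0.36, did not either.

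Of 13 probe sets of 9 genes of neural development, 4 were higher, 2 lower and 7 not called (median 0.55; 46.2% called, near the 43.2% of all tested), and 5 of the 6 calls were those of Zfp292 and Zfp462. The other was Zfp703, a repressor, which read 12.48 (N0) and 12.62 (N1) with cDNA and 10.25 (R0) and 11.39 (R1) with aRNA, a difference of 1.74 ± 0.40 (standard error of the fit; limma adjusted p = 0.00759). Zfp423, needed for the cerebellar vermis, read 9.11 (N0) and 9.33 (N1) with cDNA and 8.33 (R0) and 9.0 (R1) with aRNA and was not called. Zfp521 (0.23), Zfp503 (−0.19), Zfp536, a repressor of neuronal differentiation (0.61), Zfp335, needed by neural progenitors (−1.05) and Zfp365 (0.59) were not called.

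Of the genes that guard imprints or silence retroelements, 4 of 6 had members, 5 probe sets with 1 higher and 1 lower (40.0% called, against 43.2% of all tested). Zfp445, which keeps imprints, read 12.30 (N0) and 12.36 (N1) with cDNA and 13.64 (R0) and 13.52 (R1) with aRNA at 1454774_at. It was lower on cDNA there (−1.25) and not called at 1427254_at (−0.26). Zfp932, a silencer of endogenous retroviruses, was higher (1.10). Zfp568 (0.89) and Zfp809, which represses retroviral genomes (−0.28), were not called. Zfp57, the imprint guard of early embryos, and Zfp42, a marker of pluripotent cells, were no members and lay under background on all 4 arrays.

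Among activators and signal-linked factors, 6 of 20 probe sets of 9 genes were higher, 3 lower and 11 not called (median 0.20; 9 of 20 called, a share near the 43.2% of all tested). The 3 probe sets of Zfp110, which binds the p75 neurotrophin receptor, were all higher on cDNA. Probe set 1437236_a_at read 13.54 (N0) and 13.42 (N1) with cDNA and 11.65 (R0) and 11.58 (R1) with aRNA, and the differences were 1.86, 2.13 and 0.98. The related Zfp369 was not called (−0.82). Zfp281 was higher at 1426377_at (0.90) and lower at 1452045_at (−1.53), and Zfp91 higher at 1 of 3 (0.71). Zfp219 (0.73), Zfp384 (0.48), Zfp217 (1.75) and both probe sets of Zfp64 (−0.12 and −0.20) did not pass. Of these 4 role lists, 5 symbols (Zfp265, Zfp706, Zfp238, Zfp143 and Zfp161) matched no platform symbol.

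The co-repressors of KRAB zinc finger proteins, for comparison, had 26 tested probe sets of 12 genes, 6 higher, 9 lower and 11 not called (57.7% called, against 43.2% of all tested, median −0.38; Uhrf1 had no tested probe set). Trim28 was not called at either probe set (0.43 and −0.07), and Setdb1 was lower (−1.36). Dnmt1, the maintenance methyltransferase, was higher at 2 probe sets (2.31 and 3.36) and lower at 1 (−2.37).

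Arrays N1 and R1 were then compared with N0 and R0, in a model with preparation. No member passed the threshold (limma, 0 of 356, smallest adjusted p = 0.701), where 0.0622% of all tested did. At an unadjusted p under 0.05 there were 16 members (4.49%), 5 higher and 11 lower on number 1, against 5.86% of all tested (3.26% higher and 2.59% lower). With 1 residual degree of freedom, this test resolves only large differences.

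The named members of this comparison are those of the 16 with the same sign in both preparations, up to 8 each way. No adjusted p supports them. Each value is that of 1 probe set. Zfp592, Zfp574, Zfp941, Zfp398, Zfp451, Zfp644 and Zfp771 had other member probe sets, whose differences by number are not given here. Zfp592 was higher on number 1 by 1.60 for cDNA and 1.0 for aRNA. Zfp362, Zfp574, Zfp647 and Zfp3 had mean differences of 0.90, 0.84, 1.14 and 1.78. For Zfp3 the second probe set, 1439563_at, went the other way (−0.92), and 1460076_x_at lay under background on cDNA array 0. Lower on number 1 were Zfp619 (−1.10 and −1.14), Zfp941 (−1.15 and −1.66), Zfp398 (−2.26 and −0.59) and Zfp451 at 1456350_at (−1.80 and −0.74). The same held for Zfp644 at 1436985_at (−0.58 and −1.79), Zfp688 (−0.25 and −2.28), Zfp771 at 1440971_x_at (−1.53 and −0.63) and Zfp654 (−1.70 and −0.40). Zfp451 and Zfp771 lay under background on cDNA array 1 there, and Zfp941 on aRNA array 1. Zfp592, Zfp619 and Zfp941 were the members past 2-fold (1 on the log2 scale) in the same direction in both preparations, 3 of 356, against 1.18% of all tested.

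Within the preparations, the members' differences were of unlike kind. Between the cDNA arrays the median was −0.03 and 184 of 356 members (51.7%) were lower on array 1, against 51.3% of all tested. Between the aRNA arrays the median was −0.23 and 240 (67.4%) were lower on array 1, against a median of 0.00 and 50.4% of all tested. With 1 probe set per gene, 172 of 250 (68.8%) were lower, and 245 of 356 after centring on array medians. In the 4 ranges of level, from the lowest, the aRNA medians were −0.26, −0.27, −0.25 and −0.13. Past 2-fold, 51 members differed for cDNA (13.4% of all tested did) and 44 for aRNA (8.58%). These are single arrays, so no test applies.

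Other values moved between the same 2 aRNA arrays. The 5 microglial markers were higher on aRNA array 1 by 1.74 to 3.53, with a summed intensity of 61825 against 9318 on array 0, and 4 of 5 were higher on cDNA array 1 (summed intensity 37859 against 22206 on array 0). Of the astrocyte markers 3 of 4 were higher on array 1 in each preparation, Gfap from 9.19 to 14.46 with aRNA and from 11.77 to 12.90 with cDNA. All 5 neuronal markers were higher on array 1 in both preparations, by a median of 0.21 with aRNA and 0.26 with cDNA. Of the oligodendrocyte markers 3 of 4 were lower on aRNA array 1 and 3 of 4 higher on cDNA array 1. The 2 hindbrain and spinal cord markers above background on each array were lower on aRNA array 1 (Slc6a5 from 11.76 to 7.51, Hoxa5 from 10.14 to 9.15) and higher on cDNA array 1 (9.88 to 10.35 and 9.46 to 9.68). The 3′ minus 5′ difference of the control transcripts was 0.83 larger on aRNA array 1 for Gapdh, 0.63 for beta-actin and 0.26 for pyruvate carboxylase. With cDNA it was smaller on array 1: 3.38 to 2.05, 4.07 to 3.62 and 1.83 to 1.75 in the same order. The sex-linked transcripts are given above. The part of these in the members' shift was not tested.

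**Figure D5:**
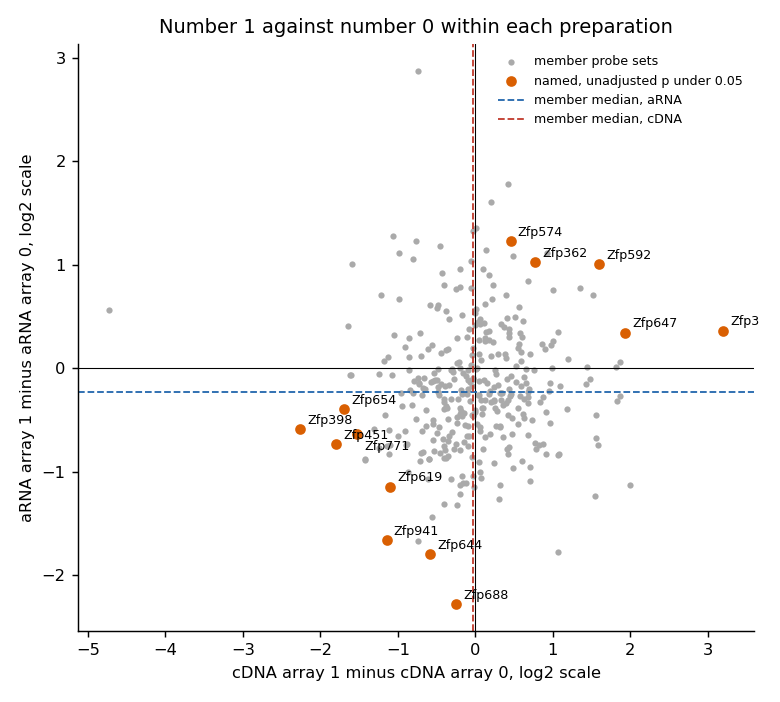
Array 1 minus array 0 (log2 scale) for cDNA on the horizontal and aRNA on the vertical axis, 1 point per member (356); orange points are the 13 named ones, and dashed lines mark the member medians, −0.03 for cDNA and −0.23 for aRNA. The cloud is centred near 0 along the horizontal axis and under 0 along the vertical one.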

How the data were processed

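Total RNA was measured on 4 arrays, 2 with cDNA and 2 with aRNA target. The deposited table holds 1 intensity per probe set on a linear scale, which the authors had scaled: the 2% trimmed mean was 2500.02 on each array. Which software made it is not stated in the sources used here. Genes were named from the platform annotation, and all 356 members were found in the RefSeq gene table. The members, the gene lists and the motifs were chosen with earlier results of these data known.

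In the text, N0 and N1 are cDNA arrays 0 and 1, and R0 and R1 aRNA arrays 0 and 1. Values were taken as log2(intensity + 16). After 64 control probe sets were left out, 22519 of 45037 with a mean of at least the median were tested with limma 3.58.1 (R 4.3.3; lmFit, eBayes with an intensity trend) and Benjamini-Hochberg adjustment over all of them at 0.05. Array numbers were compared with preparation in the model. A 2 against 2 exact permutation test cannot go below p = 0.333. Where a probe set lay under background on an array of its dimmer group, the fold is a bound against background. On simulated data 0, 119 and 182 of 200 probe sets changed by 1, 2 and 3 on the log2 scale were recovered in the cDNA comparison. The simulation changed 200 of 22519 probe sets, while 43.2% of those tested were called in the data. Adjustment is stricter where few probe sets change, so these counts do not give the recovery in the data.

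Probe sets named are the 12 largest called differences each way, the 8 brightest genes and 3 on each side of the threshold. Up to 8 each way by number, those of the genes called both ways with the widest ranges, and the role lists were added. For the 12 each way, names in _x_at and probe sets whose cDNA and aRNA arrays overlapped were left out, with 1 per gene and direction. Alternatives changed the pseudocount, filter, scaling, trend, block and probe set choice and left out each array. A planned grouping by protein sequence was not made, since no protein sequences were used here. Intensity alone gives no counting error, and 2 arrays per preparation limit the precision.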

Additional observations from a re-analysis of the deposited data

How the results depend on the processing

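With a filter at the 75th percentile of level, the 118 calls between cDNA and aRNA numbered 65. These are 62.5% of the 104 members tested, against 57.3% of all tested. With 1 array left out they numbered 76 to 104 (21.3% to 29.2%, against 31.7% to 37.9% of all tested). Other alternatives gave 81 to 120 (17.7% to 40.3% of the probe sets used, against 21.2% to 45.5% of all tested). The median difference, −0.15, was −0.30 after centring on array medians, −0.14 to −0.06 with 1 array left out (−0.06 without aRNA array 0), −0.09 with 1 probe set per gene and −0.04 over every matching probe set. Of the 24 named calls none reversed; those lost are given above. For the array numbers 0 members passed in each alternative run; leaving out an array leaves no residual degree of freedom, so this was not run. Whether equal array numbers share RNA is not given. Over all probe sets tested the 2 differences by number had r = 0.041. The replicate block gave 119 calls (33.4% of the members, against 45.5% of all tested). The alternatives for the count lower on aRNA array 1 (237 to 245 of 356) were chosen after seeing the data. Low intensity limits the 28 members under background on at least 1 array.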

Other observations

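Other zinc finger families on the same arrays (Zbtb, Zscan, Zkscan, Klf, Zic and Zc3h) had 130 tested probe sets, 30 higher and 17 lower on cDNA (36.2% called, against 43.2% of all tested, median 0.14). All 5 tested probe sets of the Zic genes, known from cerebellar granule cells, were higher, with a median of 3.44. They belonged to 3 of the 4 Zic genes on the platform. Their median level was 11.60 (N0) and 11.53 (N1) with cDNA and 8.0 (R0) and 7.67 (R1) with aRNA. The filter for testing was a mean over the 4 arrays of 8.38, so they could pass it through the cDNA arrays. Between the aRNA arrays 64 of the 130 were lower on array 1. Of the member genes, 97 formed 63 pairs of neighbours in RefSeq order. Differences between preparations had the same sign in 38 pairs and opposite signs in 25. The share among neighbours of all tested genes was not computed, so these counts are a description only. Zfp84 at 1425210_s_at differed by −4.73 between the cDNA arrays and by 0.56 between the aRNA arrays.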
